A study of Mus musculus with 6 samples.

Results

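The BCL2 survival family was followed through 10 genes that encode pro-survival and pro-death BCL2 proteins, chosen by symbol, among the 24411 gene rows counted in mouse liver. They were Bcl2, Bcl2l1, Mcl1, Bcl2a1a, Bcl2a1b and Bcl2a1d on the pro-survival side, Bcl2l11, Bid and Bmf among the BH3-only genes, and the effector gene Bak1. Bulk RNA sequencing was available as 3 Control and 3 Cyr61 KO liver libraries from male mice, 24 weeks old. Mice of both groups carried floxed Cyr61 alleles (strain Cyr61fl/fl) and had been on a diet that induces NASH, a fatty liver disease with inflammation and fibrosis, for 12 weeks. The labels name neither the Cre driver nor the cells in which the gene was lost, and do not say whether each library came from its own mouse. The p-values therefore cover only the spread among the libraries, which may be technical. The product of Cyr61, also called Ccn1, is a matrix-associated signalling protein, which the submitters' title connects with NF-kB in macrophages derived from monocytes. The comparison asks which transcripts of the survival family differ in fibrotic liver when Cyr61 is removed.

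BCL2 proteins decide at the mitochondrial outer membrane whether a cell enters apoptosis. Pro-survival members hold the effectors BAX and BAK in check, and BH3-only proteins free or activate these effectors when a cell is stressed or has lost its growth signals. MCL1 and BCL-XL, the product of Bcl2l1, protect hepatocytes, whereas A1, the product of the Bcl2a1 genes, is made mainly by blood cells and is a known target of NF-kB. In the mouse the A1 gene is duplicated into several close copies on chromosome 9.

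The copies are so alike that short reads often cannot be placed, and their sequences show where they can. On GRCm38, GENCODE M21 places Bcl2a1d at 88723285 to 88731914 on the minus strand of chromosome 9, Bcl2a1a at 88956900 to 88962419 on the plus strand and Bcl2a1b at 89199209 to 89207827 on the plus strand. Each copy has 1 annotated transcript with 2 exons and 516 coding bases. Of the 516 coding positions, 12 differ between the copies, and 6 of the 12 fall in the first 90 bases, which lie in exon 1. In the stretches, read from the start codon and taken from GENCODE M21 transcripts, capitals mark the positions at which the copies differ (Bcl2a1a at chr9:88957051-88957140, Bcl2a1b at chr9:89199360-89199449 and Bcl2a1d, minus strand, at chr9:88731630-88731719).
Bcl2a1a: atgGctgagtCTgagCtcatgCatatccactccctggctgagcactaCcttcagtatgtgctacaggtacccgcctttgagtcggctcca
Bcl2a1b: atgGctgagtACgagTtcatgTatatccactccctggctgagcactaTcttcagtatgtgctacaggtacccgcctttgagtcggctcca
Bcl2a1d: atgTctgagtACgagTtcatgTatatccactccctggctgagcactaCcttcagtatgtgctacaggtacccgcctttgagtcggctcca

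Coding identity was 97.9% between Bcl2a1a and Bcl2a1b, 98.6% between Bcl2a1a and Bcl2a1d and 98.8% between Bcl2a1b and Bcl2a1d. The longest coding run shared by all 3 copies spans 217 bases, from coding position 95 to 311. Windows of 50 bases that occur in no other gene's transcripts made up 31.0% of Bcl2a1a, 20.8% of Bcl2a1b and 20.5% of Bcl2a1d. With windows of 150 bases these shares were 71.8%, 58.1% and 69.7%, while each of the other 7 members had 100% unique windows at that length. Read length is not given in the sources used here, and reads that fit several positions were not counted for any gene. The counts of the copies are therefore uncertain, both in their split and in their level. Bcl2a1b also shares 401 exonic bases with the overlapping gene model Gm29094 on the same strand. Gm29094 has no row of its own among the counted genes, so reads from it could count for Bcl2a1b. Another copy, Bcl2a1c, had 0 reads in all 6 libraries, although 89.6% of its windows of 50 bases are unique.

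The DNA just before the copies was compared as well, because the groups did not overlap for any of the 3 copies. Nor did they overlap for 35.2% of all tested genes, and copies this alike are not independent observations. RefSeq promoter windows on GRCm38.p6, from 250 bases before to 50 bases after each start, were found for 10 of 10 members, in 15 windows. The part printed ends before the starts given by RefSeq and by GENCODE (Bcl2a1a at chr9:88956714-88956855, Bcl2a1b at chr9:89199023-89199164 and Bcl2a1d, minus strand, at chr9:88731915-88732050). Capitals mark a match to TGANTCA, followed by a PU.1 motif, GAGGAAGT. TGANTCA is a loose form of the AP-1 motif in which the centre, N, may be any base. In each copy the match is TGAATCA, with A at the centre.
Bcl2a1a: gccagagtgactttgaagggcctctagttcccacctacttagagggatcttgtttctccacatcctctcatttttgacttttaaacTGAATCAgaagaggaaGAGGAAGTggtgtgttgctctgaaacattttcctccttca
Bcl2a1b: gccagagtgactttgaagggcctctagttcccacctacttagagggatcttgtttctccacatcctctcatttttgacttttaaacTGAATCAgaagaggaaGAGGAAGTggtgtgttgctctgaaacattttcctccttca
Bcl2a1d: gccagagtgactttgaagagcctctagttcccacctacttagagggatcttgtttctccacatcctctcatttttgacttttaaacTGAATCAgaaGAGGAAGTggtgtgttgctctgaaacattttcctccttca

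Bcl2a1a and Bcl2a1b were identical over these 142 bases, and Bcl2a1d matched either at 99.3% of 136 aligned bases. The motifs lie 9 bases apart in Bcl2a1a and Bcl2a1b but 3 bases apart in Bcl2a1d, and they do not overlap. Both strands were searched. Of 32851 RefSeq windows of the same length, 7.81% held TGANTCA and 3.20% held GAGGAAGT. Of the 15 windows of members, 3 held TGANTCA, 1 for each copy, and 4 held GAGGAAGT, those of the copies and that of Bak1. The window of Bcl2a1c, the copy with 0 reads, also held GAGGAAGT, and it held no TGANTCA. The kappa B consensus, the motif of NF-kB, was in 4.51% of all windows and in 2 windows of members, 1 of Bcl2l1 and 1 of Bmf. These are matches of letters and do not show binding, and DNA outside the windows was not searched.

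Sequencing depth was 21032878 to 40377742 gene counts per library. The library that differed most was Control replicate 2: genes took 50.9% of its reads (82.8% to 87.6% in the others), and 19.4% mapped to several positions (3.74% to 5.73% in the others). It also had the highest summed CPM of leukocyte and cholangiocyte markers. Cyr61 itself was at 15.6, 32.4 and 27.8 CPM in the controls and at 3.77, 2.66 and 3.14 CPM in the knockouts (log2 fold change -2.98, edgeR adjusted p = 0.0103). CPM here means gene counts scaled to a common library size with TMM factors, and log2 fold changes are Cyr61 KO over Control with their standard error (SE) from edgeR's quasi-likelihood test.

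The summed transcripts of the Bcl2a1 copies fell in Cyr61 KO livers, and none of the 7 other members passed the test by edgeR (1 of the 7, Bcl2, had an unadjusted p under 0.05). By edgeR, 2 of the 10 members were called at an adjusted p below 0.05, both lower, where 3.44% of the 13563 tested genes were called and 2.37% were called lower. The called members were Bcl2a1b and Bcl2a1d. The median log2 fold change was -0.35 over the 10 members, which were all tested, and -0.03 over all tested genes. Groups did not overlap in 4 of 10 members, the 3 copies and Mcl1, against 35.2% of all tested genes.

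**Figure D1:**
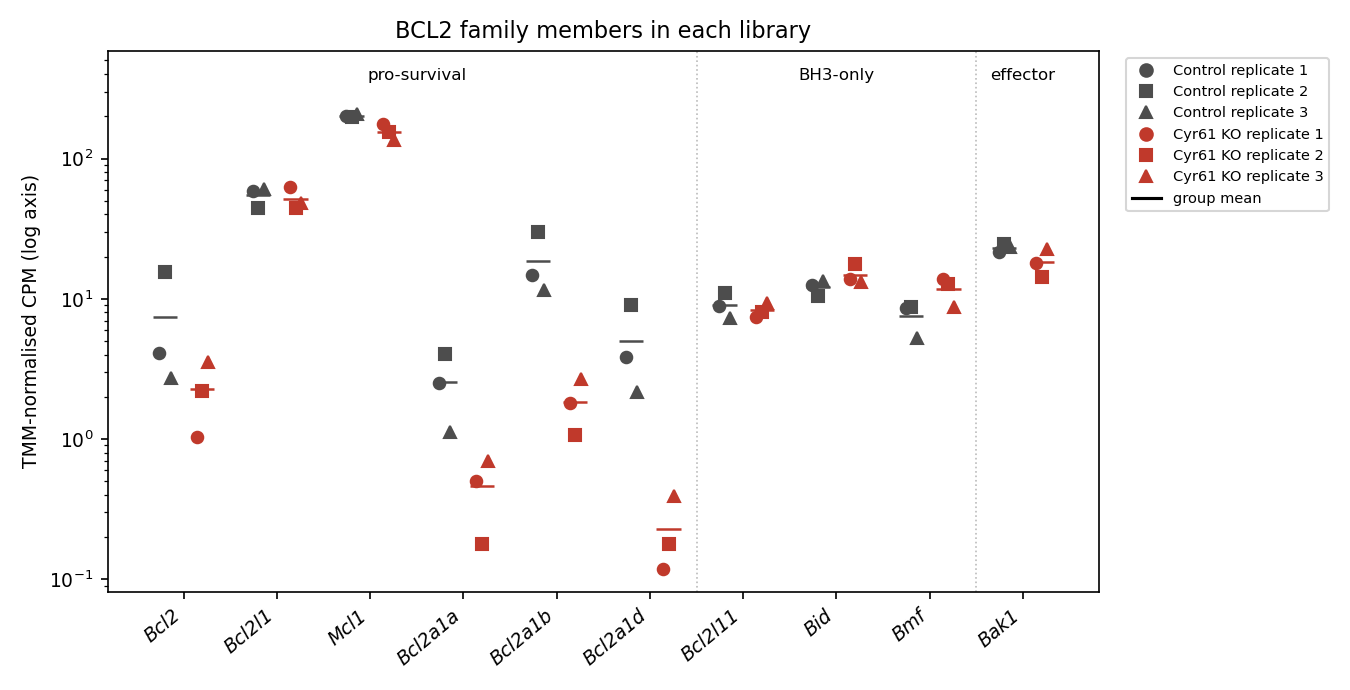
TMM-normalised CPM of each member on a log axis, with 1 point per library (grey for Control, red for Cyr61 KO, symbols for replicate numbers) and a bar at each group mean. All knockout points of Bcl2a1a, Bcl2a1b and Bcl2a1d lie below all control points, whereas the points of Bcl2l1, Bcl2l11, Bid, Bmf and Bak1 overlap.

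Bcl2a1b, the copy with the most assigned reads, was at 14.8, 29.8 and 11.6 CPM in the controls, given here and later in the order of replicates 1, 2 and 3, against 1.81, 1.06 and 2.66 CPM in the knockouts. Every knockout library was below every control, and Control replicate 2 was the highest. Control libraries averaged 18.7 ± 9.70 CPM and knockout libraries 1.85 ± 0.800 CPM (SD, n = 3), which is 9.86% of control. The log2 fold change was -3.33 ± 0.46 (SE, edgeR adjusted p = 0.0176). Bcl2a1d was at 3.82, 9.05 and 2.17 CPM in the controls and at 0.119, 0.177 and 0.393 CPM in the knockouts. Again the groups did not overlap, and only 4, 5 and 14 reads stood behind the knockout values. Its log2 fold change was -4.41 ± 0.70 (SE, edgeR adjusted p = 0.0237), with 4.58% of the control mean left. Bcl2a1a was at 2.50, 4.06 and 1.11 CPM in the controls and at 0.505, 0.177 and 0.701 CPM in the knockouts. These groups did not overlap either, but the log2 fold change of -2.45 ± 0.66 (SE) did not pass by edgeR (adjusted p = 0.0737). DESeq2 gave -2.45 with an adjusted p of 0.00449 and called 3 members, the 3 copies, where it called 16.8% of all genes. Bcl2a1a was also called by voom with quality weights (33.1% of all genes called), without a low-count filter (5.28%), and by DESeq2 without Control replicate 2 (11.7%).

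Adding the reads of the copies removes the question of which copy a read was given to. The sum was at 21.1, 42.9 and 14.9 CPM in the controls and at 2.44, 1.42 and 3.76 CPM in the knockouts. Even the highest knockout library was below the lowest control. The log2 fold change of the sum was -3.36 ± 0.48 (SE), with a 95% interval from -4.46 to -2.27 (edgeR adjusted p = 0.0185). The calls of Bcl2a1b, Bcl2a1d and the sum were lost without Cyr61 KO replicate 1 or 2, as were most calls over all genes. Without replicate 1 the log2 fold changes were -3.29, -4.07 and -3.31 (edgeR adjusted p = 0.0782, 0.0885 and 0.0829). Without replicate 2 they were -3.04, -4.24 and -3.06 (edgeR adjusted p = 0.0754, 0.109 and 0.0775). Leaving out Control replicate 1, 2 or 3 gave 2, 2 and 3 called members where 1.26%, 2.15% and 6.31% of all genes were called. Leaving out Cyr61 KO replicate 1, 2 or 3 gave 0, 0 and 2 members where 0.0502%, 0.172% and 5.57% were called. Scaling by library totals alone called 0 members and 0.369% of all genes, at -3.69, -4.79 and -3.73 for Bcl2a1b, Bcl2a1d and the sum (0.0558, 0.0660 and 0.0569).

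Within the summed reads Bcl2a1b led in every library. It held 70.1%, 69.4% and 78.0% of the reads in the controls and 74.4%, 30 of 40 reads and 70.9% in the knockouts, and these ranges overlap. Bcl2a1d held 18.1%, 21.1% and 14.6% in the controls, out of 752, 1246 and 481 reads. In the knockouts it held 4.88%, 12.5% and 10.4%, out of 82, 40 and 134 reads, with exact Clopper-Pearson 95% intervals of 1.34% to 12.0%, 4.19% to 26.8% and 5.83% to 16.9%. Bcl2a1a held 11.8%, 9.47% and 7.48% in the controls and 20.7%, 12.5% and 18.7% in the knockouts. The group values overlapped for neither Bcl2a1d, with a difference of -8.64 percentage points, nor Bcl2a1a, with a difference of 7.70 points. The intervals cover counting error only, and 2 of the 3 for Bcl2a1d reach into the range of the control values. No test of the shares was made.

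**Figure D2:**
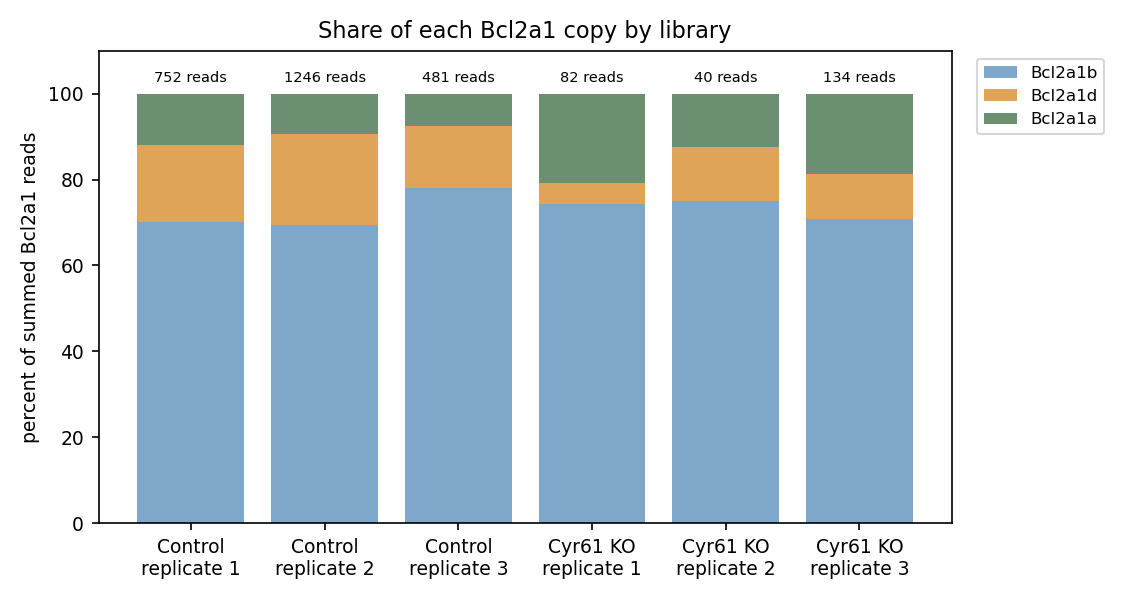
Stacked bars give the percent of summed Bcl2a1 reads assigned to each copy in each library, from 0 to 100, with the number of reads above each bar. Bcl2a1b takes 69.4% to 78.0% everywhere, and the Bcl2a1d part is smaller in the 3 knockout libraries, which rest on 40 to 134 reads.

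Among the other pro-survival genes, Mcl1, whose short-lived protein many cell types need, was at 199.6, 196 and 207 CPM in the controls and at 176, 154 and 136 CPM in the knockouts. All knockout libraries lay below the narrow control range. The log2 fold change was -0.37 ± 0.22 (SE), with a 95% interval from -0.88 to 0.14, and did not pass (edgeR adjusted p = 0.309). Bcl2l1 was at 58.5, 44.7 and 61.0 CPM in the controls and at 62.6, 44.2 and 48.3 CPM in the knockouts, which overlap. Its log2 fold change was -0.08, with a 95% interval from -0.59 to 0.42 (edgeR adjusted p = 0.833). Bcl2, the founding member, known for its role in lymphocyte survival, was at 4.07, 15.5 and 2.72 CPM in the controls and at 1.04, 2.20 and 3.56 CPM in the knockouts. Only Control replicate 2 was far from the rest, and Cyr61 KO replicate 3 was above Control replicate 3. The log2 fold change of Bcl2 was -1.71 ± 0.69 (SE, edgeR adjusted p = 0.156), and it was -0.56 without Control replicate 2 (adjusted p = 0.528). In that library T and NK cell markers summed to 55.9 CPM, the highest of all 6. It was also highest for markers of neutrophils, monocyte-derived macrophages, dendritic cells, B and plasma cells, cholangiocytes and stellate cells. The part of any of these cells in the Bcl2 value was not tested.

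None of the 3 BH3-only genes, nor Bak1, passed the test by edgeR, and none had an unadjusted p under 0.05. Bmf, whose protein senses loss of attachment, was at 8.65, 8.74 and 5.29 CPM in the controls and at 13.9, 12.8 and 8.72 CPM in the knockouts. Cyr61 KO replicate 3 lay within the control range. The log2 fold change was 0.64 ± 0.29 (SE), with a 95% interval from -0.02 to 1.30 (edgeR adjusted p = 0.195). Voom with quality weights gave 0.68 (limma adjusted p = 0.0447) in a setting that called 33.1% of all genes. Bid, which carries the signal of death receptors to the mitochondria once caspase-8 has cut its protein, was at 12.5, 10.4 and 13.4 CPM in the controls and at 13.8, 17.7 and 13.1 CPM in the knockouts. Its groups overlap, at a log2 fold change of 0.30 with a 95% interval from -0.20 to 0.79 (edgeR adjusted p = 0.402). Bcl2l11, which encodes BIM, was at 8.85, 11.1 and 7.27 CPM in the controls and at 7.37, 8.05 and 9.36 CPM in the knockouts. All knockout values lie within the control range, and the log2 fold change was -0.13 with a 95% interval from -0.71 to 0.44 (edgeR adjusted p = 0.758). Bak1, which encodes the pore-forming effector BAK, was at 21.5, 24.6 and 23.3 CPM in the controls and at 18.0, 14.3 and 22.5 CPM in the knockouts. Cyr61 KO replicate 3 was again among the controls, and the log2 fold change was -0.34 with a 95% interval from -0.83 to 0.16 (edgeR adjusted p = 0.337). Bak1 overlaps Ggnbp1 on the opposite strand by 614 exonic bases, and Bid overlaps Bcl2l13 by 628. The strand-specific counts used here keep such pairs apart.

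**Figure D3:**
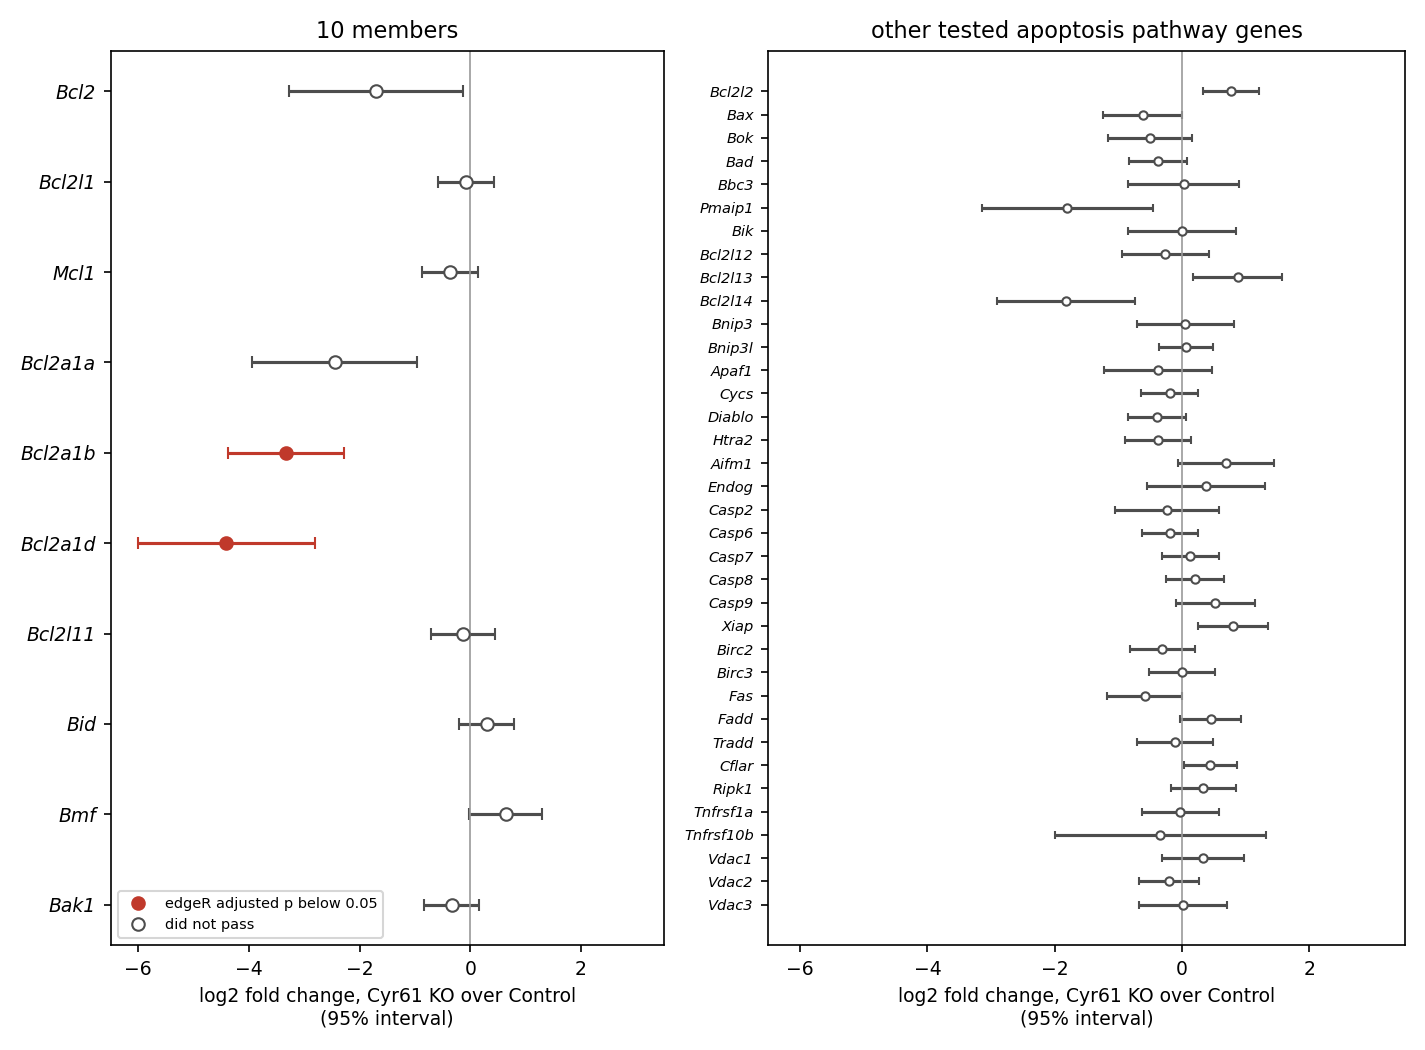
Log2 fold changes of Cyr61 KO over Control with 95% intervals, at left for the 10 members and at right for other tested genes of the apoptosis pathway. Filled red points passed at an edgeR adjusted p below 0.05, which only Bcl2a1b and Bcl2a1d did.

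Levels of different genes can be compared only per length, here as CPM per kilobase of annotated exon. In the controls Mcl1 led with 58.8 ± 1.64 (SD, n = 3), followed by Bcl2a1b with 22.9 ± 11.9, Bcl2l1 with 11.9 ± 1.91 and Bak1 with 9.62 ± 0.658. Control ranges did not overlap between Mcl1 and Bcl2a1b or between Bcl2a1b and Bcl2l1, but each later neighbour in the order overlapped with the next. After Bak1 came Bcl2a1d, Bid, Bcl2a1a, Bmf, Bcl2l11 and, at 0.812 ± 0.768, Bcl2. In the knockouts the order was Mcl1 at 45.5 ± 5.84, Bcl2l1 at 11.3 ± 2.11, Bak1 at 7.60 ± 1.72, Bid at 4.19 ± 0.694 and Bcl2a1b at 2.26 ± 0.979 CPM per kilobase. Bcl2a1b thus ranked 2 in the controls and 5 in the knockouts, and Bcl2a1d 5 and 9. Among knockout neighbours only Bcl2a1b and Bmf, Bcl2a1a and Bcl2a1d, and Bcl2a1d and Bcl2 overlapped. Reads that fit several copies are missing from these values, which lowers the levels of the copies per length by an unknown amount. Reads from the uncounted overlapping model Gm29094 could raise that of Bcl2a1b. The length counts every annotated exon of a gene, 4586 bases in 18 distinct exons for Bcl2l1 but 817 in 2 for Bcl2a1b. This can place genes with many transcript forms too low beside the copies, so the order is uncertain in both directions.

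Added up per length, the 6 pro-survival members came to 97.2, 121 and 92.3 CPM per kilobase in Control replicates 1, 2 and 3 and to 68.3, 56.6 and 55.4 in Cyr61 KO replicates 1, 2 and 3. The copies made up 26.3%, 43.0% and 19.6% of this level in the controls and 4.35%, 3.05% and 8.25% in the knockouts. Mcl1 made up 60.1%, 47.5% and 65.7% in the controls and 75.5%, 79.5% and 72.0% in the knockouts. Neither pair of ranges overlaps, and Bcl2 stayed at or below 1.40% in every library. Shares of a sum depend on each other, so a smaller share of the copies raises that of Mcl1 by construction. The size of each share also depends on the exon lengths used.

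**Figure D4:**
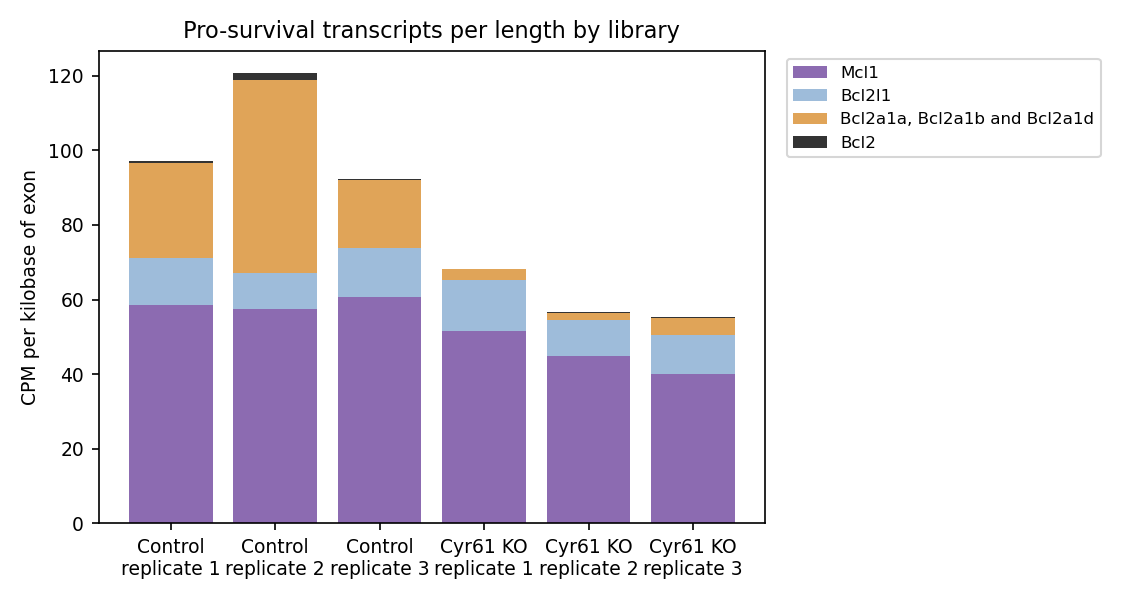
Stacked bars give the level of pro-survival transcripts in CPM per kilobase of exon in each library, starting at 0. Mcl1 is the tallest part of every bar, and the part of the 3 Bcl2a1 copies takes 19.6% to 43.0% of the bar in the controls and 3.05% to 8.25% in the knockouts.

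In whole liver, fewer cells of a type and less RNA per cell cannot be told apart, so markers of the cells that could carry the copies were read beside them. The counts of markers stand beside 2.37% of all tested genes called lower, 1.07% called higher and 27.4% with an unadjusted p under 0.05. Of the monocyte-derived macrophage markers, 6 of 10 tested were called lower by edgeR and 10 had an unadjusted p under 0.05. Their summed level was 457 to 1618 CPM in the controls and 116 to 249 CPM in the knockouts. A large part of these sums was Spp1 alone, at 221, 1113 and 193 CPM in the controls and at 69.0, 61.9 and 126 CPM in the knockouts. Of the neutrophil markers 2 of 8 tested were called lower and 8 had an unadjusted p under 0.05, at sums of 17.3 to 96.6 and 3.48 to 8.10 CPM. S100a9, the most abundant of them, was at 4.63, 25.3 and 10.1 CPM in the controls and at 1.07, 0.568 and 1.01 CPM in the knockouts. T and NK cell markers had 0 of 6 tested called by edgeR, of which 5 had an unadjusted p under 0.05, at sums of 5.91 to 55.9 and 2.84 to 3.25 CPM. B and plasma cell markers had 1 of 6 called lower and 3 at an unadjusted p under 0.05, at 13.4 to 61.7 and 4.78 to 5.72 CPM. For dendritic cell markers the sums were 4.98 to 22.0 and 4.01 to 5.97 CPM, with 0 of 5 called by edgeR and 3 at an unadjusted p under 0.05. Their log2 fold changes were -2.21 for Flt3, -2.12 for Xcr1, -1.39 for Clec9a, -3.52 for Cd209a and 0.18 for Zbtb46. Kupffer cell markers overlapped, at 421 to 567 and 195 to 574 CPM, with 0 of 6 called and 1 at an unadjusted p under 0.05. That 1 was Timd4, at 2.05, 2.03 and 2.01 CPM in the controls and 5.44, 3.62 and 9.17 CPM in the knockouts, without overlap (log2 fold change 1.58, edgeR adjusted p = 0.0627). Timd4 and the dendritic cell markers other than Zbtb46 are named after their values were seen. Of the mast cell and basophil markers only Kit passed the low-count filter, and 3 of 6 had 0 reads in all knockouts. Cholangiocyte markers, of epithelial bile duct cells, were at 40.7 to 252 and 18.7 to 31.0 CPM, with 0 of 5 called and 4 at an unadjusted p under 0.05. Those 4, Krt19, Krt7, Epcam and Cftr, had log2 fold changes of -3.06, -2.56, -3.19 and -1.96, against -0.84 for Sox9. They are named after their values were seen. Of the 3 leukocyte genes 1, Coro1a, was called lower and 3 had an unadjusted p under 0.05, at summed levels of 123 to 362 and 34.5 to 89.6 CPM. Hepatocyte markers had 0 of 6 called and 1 at an unadjusted p under 0.05, at sums of 40263 to 97901 and 108086 to 127395 CPM. Control replicate 2 had the lowest of these sums. Stellate cell markers had 1 of 6 called lower and 3 at an unadjusted p under 0.05, at sums of 388 to 597 and 210 to 387 CPM. Endothelial markers had 2 of 5 called higher, the same 2 at an unadjusted p under 0.05, at 89.5 to 138.7 and 138.6 to 186 CPM. Of the most abundant marker in each list, S100a9 and the plasma cell gene Jchain fell (log2 fold changes -3.90 and -3.28) and the sinusoidal endothelial gene Clec4g rose (0.90), by edgeR at adjusted p = 0.0237, 0.0265 and 0.0487. Spp1, Laptm5, Nkg7, Cd5l, Kit, Alb, Sox9 and Dcn were at -2.57, -1.48, -2.75, -0.78, 0.21, 0.67, -0.84 and -0.85 and were not called. The part of any of these cell types in the Bcl2a1 difference was not tested.

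The copies were also set against genes that nearly all leukocytes express. The summed Bcl2a1 level divided by that of Ptprc (CD45) was 0.610, 0.501 and 0.693 in the controls and 0.272, 0.204 and 0.166 in the knockouts. Ptprc itself was at 34.6, 85.6 and 21.5 CPM in the controls and at 8.94, 6.95 and 22.6 CPM in the knockouts, where replicate 3 was within the control range. Its log2 fold change, -1.88, did not pass (edgeR adjusted p = 0.0914). The ratio differed by -1.51 on the log2 scale, from -0.75 ± 0.24 to -2.25 ± 0.36 (SD, n = 3), with no overlap and an exact two-sided permutation p of 0.1, the smallest that 3 against 3 libraries allow. With Coro1a, a leukocyte actin regulator, the difference was -1.01, and with Laptm5, a leukocyte lysosomal protein, it was -1.87, both again without overlap (exact permutation p = 0.1 each). Bcl2 over Ptprc was 0.118, 0.181 and 0.127 in the controls and 0.116, 0.316 and 0.158 in the knockouts. These ranges overlap (difference 0.37, exact permutation p = 0.7). Adjusted over the 6 ratios computed, the permutation p was 0.2 for each Bcl2a1 ratio and 0.45 to 1 for the Bcl2 ratios. Ratios to genes of nearly all leukocytes cannot tell a different mix of leukocytes from less RNA of the copies per cell. The part of either was not tested.

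**Figure D5:**
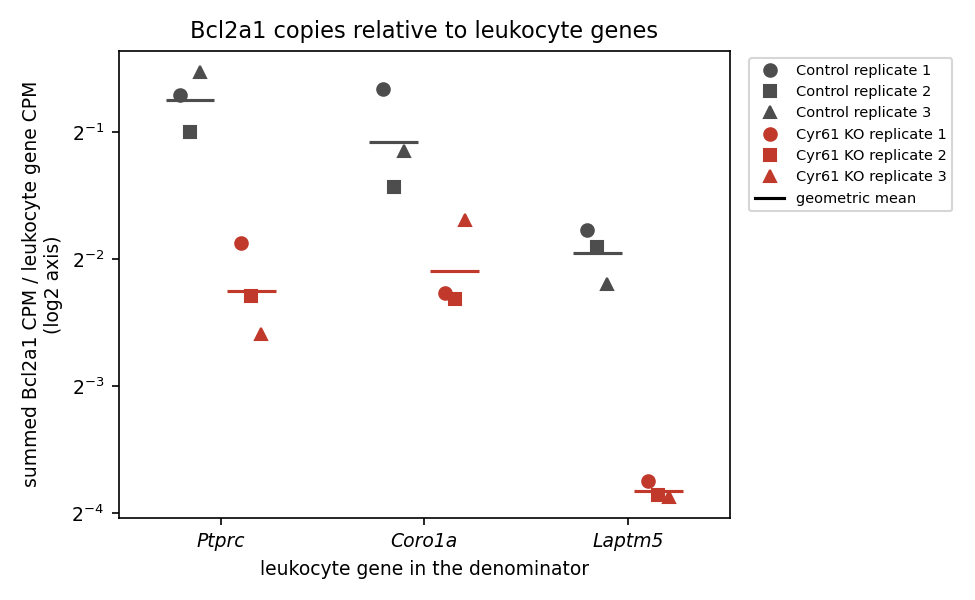
Summed Bcl2a1 CPM divided by the CPM of Ptprc, Coro1a or Laptm5 in each library, on a log2 axis, with a bar at each group's geometric mean. For each of the 3 denominators the knockout points lie below the control points, from 0.501 to 0.693 against 0.166 to 0.272 with Ptprc.

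Of the 41 other genes of the apoptosis pathway listed, 37 passed the low-count filter, and edgeR called 0 of them. Of the 37, 6 had an unadjusted p under 0.05, where 27.4% of all tested genes had, and the median log2 fold change was -0.003 against -0.03 over all genes. Among effectors, Bax was at 37.2, 49.6 and 49.8 CPM in the controls and at 40.7, 20.4 and 27.9 CPM in the knockouts, and Bok was at 31.7, 28.9 and 27.2 against 30.2, 13.6 and 18.1 CPM. Both had 1 knockout library within the control range, at log2 fold changes of -0.62 and -0.50 (edgeR adjusted p = 0.186 and 0.285). The BH3-only gene Pmaip1, which encodes NOXA, a partner of MCL1 and A1, was at 3.40, 7.64 and 2.63 CPM in the controls and at 1.25, 0.532 and 2.10 CPM in the knockouts. Its groups did not overlap, at a log2 fold change of -1.80 ± 0.59 (SE, edgeR adjusted p = 0.105). Bbc3, which encodes PUMA, was at 0.03 on the log2 scale (edgeR adjusted p = 0.967).

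Among caspases and their inhibitors, Casp8, the initiator caspase of death receptors, had a log2 fold change of 0.20 and did not pass (edgeR adjusted p = 0.528). Birc3, which encodes an inhibitor of apoptosis and is another NF-kB target, was at 18.4, 18.5 and 12.1 CPM in the controls and at 15.1, 17.7 and 16.1 CPM in the knockouts. These ranges overlap, and the log2 fold change of -0.002 had a 95% interval from -0.52 to 0.51 (edgeR adjusted p = 0.996). Cflar, which encodes the caspase-8 inhibitor FLIP, was at 62.7, 55.4 and 55.2 CPM in the controls and at 78.5, 80.1 and 77.4 CPM in the knockouts. Each knockout was above each control, but the log2 fold change of 0.45 ± 0.18 (SE) did not pass (edgeR adjusted p = 0.164). The death receptor gene Fas was at -0.59 (edgeR adjusted p = 0.185). DESeq2 called 4 of the pathway genes where it called 16.8% of all genes, namely Bcl2l2 and Xiap higher and Bcl2l14 and Pmaip1 lower; the first 3 are named after their values were seen. Bcl2l2, which encodes the pro-survival protein BCL-W, was at 21.2, 15.5 and 19.7 CPM in the controls and at 31.8, 31.9 and 32.7 CPM in the knockouts. Its log2 fold change was 0.77 ± 0.20 (SE) and missed the threshold by edgeR (adjusted p = 0.0640).

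Genes with the most similar pattern to the summed copies were sought by the mean absolute difference of log2 CPM, centred on each gene's mean, over the 6 libraries. Among 11832 tested genes with official symbols and a mean CPM of at least 1, the closest was Adam8, a leukocyte metalloprotease gene, with a mean difference of 0.17. It was at 6.18, 11.2 and 3.93 CPM in the controls and at 0.683, 0.390 and 1.57 CPM in the knockouts, which is the same order of libraries as for the copies. Trem2, a receptor of lipid-associated macrophages, and Lat2, an adaptor of blood cell receptors, followed at 0.21 and 0.22. Cldn4 and Elf3, a tight junction and a transcription factor gene of epithelial cells, came next at 0.22 and 0.23. Elf3 was at 14.9, 29.1 and 15.4 CPM in the controls and at 2.35, 1.42 and 3.67 CPM in the knockouts. For Mcl1 the 5 closest were Zc3h15, Rab29, Rab11a, Fam104a and Ptpmt1, at mean differences from 0.03 to 0.04. The likeness is a description over 6 libraries that share their group difference.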

How the data were processed

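Liver RNA of 3 Control and 3 Cyr61 KO libraries, grouped by the labels, had been sequenced in bulk. The authors deposited raw read counts per gene symbol, with unstranded counts and counts for either strand in each library's table. The submitters' processing notes list Trimmomatic 0.38, STAR 2.6.1a and the builds hg38 and mm10. For annotation, mapping settings and read length the sources used here give nothing. Reverse-strand counts were used, since the kit is directional per the labels and the other strand held 0.928% to 1.35% of stranded counts. Reads that were unmapped (2.21% to 3.83%), at several positions (3.74% to 19.4%), outside genes (4.27% to 25.7%) or in several genes (0.655% to 1.04%) stayed out of library sizes and tests. Any 2 libraries differed by more than sampling noise.

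All 24411 genes entered edgeR 4.0.16 (R 4.3.3) with filterByExpr (minimum count 10, minimum total 15), TMM scaling and a group term in a two-sided quasi-likelihood test. Benjamini-Hochberg adjustment ran over the 13563 genes kept, with calls below 0.05. The SE was derived from the log2 fold change and the F statistic. The members, gene lists and tests were chosen with earlier results of these data known. Named genes are all members, called pathway genes with 9 preset ones (1 is not reported here), Ptprc with the marker of highest mean CPM in each list, and the 5 closest patterns. Of 127 listed genes 125 were in the tables. Simulations used 5 data sets of this comparison, each with 13563 genes of which 200 were altered. Apart from the altered genes, both groups were drawn from a common mean per gene. Of genes altered 1.5-fold, 2-fold, 4-fold and 8-fold, edgeR found 0.4%, 13.2%, 74.4% and 91.2% and made 6.2 false calls on average. DESeq2 1.42.0 found 4.8%, 31.6%, 82.4% and 94.4% and made 37.6 false calls. Genes altered 1.5-fold thus rarely passed. Alternatives were DESeq2, voom with quality weights (limma 3.58.1), other scalings and filters, unstranded counts, a replicate block and each library left out. Transcript windows, identities (Biopython 1.88) and motifs were computed from GENCODE M21 and RefSeq.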

Additional observations from a re-analysis of the deposited data

How the results depend on the processing

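Bcl2a1b, Bcl2a1d and the summed copies were lower under all 15 alternatives tried, and each lost its call in the same 3: library totals only, without Cyr61 KO replicate 1 and without Cyr61 KO replicate 2. For the sum, the log2 fold change with library totals was -3.73, and it ran from -3.74 to -2.79 with 1 library left out (edgeR adjusted p = 0.0105 to 0.0829). The cause was not tested. Of the members, 4 were called by voom (33.1% of all genes called) and 0 with library totals (0.369%). With 1 library left out 0 to 3 were called (0.0502% to 6.31% of all genes). Bcl2a1a was called by DESeq2, by voom, without a low-count filter, without Control replicate 3 and by DESeq2 without Control replicate 2, at -2.45, -2.74, -2.39, -2.79 and -1.96. Of the pathway genes, 4 were called by DESeq2 (16.8% of all genes called) and 11 by voom (33.1%). DESeq2 without Control replicate 2, a setting chosen after seeing the data, called 3 of them (11.7% of all genes). Each other alternative called 0 of them. Over all genes, 2273 were called by DESeq2, 4483 by voom, 50 with library totals, 944 without a low-count filter, 1536 by DESeq2 without Control replicate 2, and 7 to 878 with 1 library left out. Library totals moved the median of all genes from -0.03 to -0.30 and the share of higher calls from 31.0% to 54%. Bcl2l1 and Bcl2l11, which never passed, changed sign in some alternatives. The Bcl2a1 sum over Ptprc stayed below 0, from -1.69 to -1.34 with 1 library left out, and the Bcl2a1d share differed by -10.3 to -6.44 percentage points, an alternative chosen after seeing the data.

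The replicate numbers are shared between groups but do not pair the libraries: same-numbered deviations correlated at -0.06, -0.24 and -0.45, and no library correlated best with its own number. With the replicate block 633 genes and 2 members, Bcl2a1b and Bcl2a1d, were called, 0 pathway genes were called, and the sum was at -3.29 (edgeR adjusted p = 0.00158).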
